A study of Mus musculus with 13 samples.

Results

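FS2-AEBP2, a tagged copy of the Polycomb protein AEBP2, was mapped within the domains of H3K27me3 in wild-type mouse embryonic stem cells (mESCs), to describe where in a domain it lay, how much of the domain it took, how far it was from a gene start and which genes carried or lacked it. An H3K27me3 region was a stretch formed by joining the peaks of both H3K27me3 lists wherever they overlapped by at least 1 bp, kept if it held a peak of each list, on chromosomes 1 to 19, X and Y of mm9. There were 5801 such regions. Of the 2884 FS2-AEBP2 peaks, 2380 overlapped a region by at least 1 bp (82.5%, 95% Wilson interval 81.1 to 83.9), and they fell in 1601 regions, which leaves 4200 regions without a peak.

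The 5 deposited peak lists used here all came from wild-type cells that the labels give as a 129/1 XY ES line: 1 list for FS2-AEBP2, 2 for H3K27me3 and 2 for endogenous AEBP2. None of these groups carried a deletion or received a drug or differentiation treatment according to the labels, and all were grown in serum with LIF. The methods place the tagged protein, full-length AEBP2 with the Flag-StrepII tag at its N terminus, in E14 mESCs under a pCAG plasmid, a strong promoter that is active in most cell types, so its level was not set by the endogenous gene; whether the cells were 1 clone is not given in the sources used here. FS2-AEBP2 was precipitated through its tag by a different protocol from the other proteins and has no replicate, so no test between conditions was possible, and all intervals below cover counting error over peaks, regions or promoters only. The labels name the histone antibody as H3K27 without the methylation state, which the study gives as H3K27me3. Replicate numbers were taken from the sample records, although the H3K27me3 file names appear to swap them. Peak lists hold no read totals, so sequencing depth is unknown, and a missing peak does not show that the protein was absent.

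Polycomb repressive complex 2 (PRC2) methylates lysine 27 of histone H3, and its product H3K27me3 marks developmental genes that are silent in mESCs. AEBP2 is an accessory subunit that is found with JARID2 in a subset of PRC2 complexes. In mESCs PRC2 is known to gather at CpG islands, GC-rich stretches that keep their CpG dinucleotides and often hold promoters, while the mark itself spreads over broader domains. For that reason CpG content was measured here on the mm9 sequence itself. A CpG-island-like region was any stretch covered by 500-bp windows in which GC made up 55% or more of the bases and the ratio of observed to expected CpG was 0.65 or more, and 20672 were found.

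The sequences at the centres of FS2-AEBP2 peaks, beside those at the centres of long H3K27me3 regions without it, show the contrast in base content on which much of the following turns. Each line gives 300 bases of the plus strand of mm9, 5′ to 3′, with every CpG in capitals. The next 3 are the centres of the FS2-AEBP2 peaks with the highest scores, at Hoxd13 (chr2:74506814-74507113, coding exon), at Uncx (chr5:140023431-140023730, an exon with 295 coding bases and 5 of UTR) and at Pax2 (chr19:44825440-44825739, outside annotated genes, 4800 bp from the Pax2 start site).
Hoxd13: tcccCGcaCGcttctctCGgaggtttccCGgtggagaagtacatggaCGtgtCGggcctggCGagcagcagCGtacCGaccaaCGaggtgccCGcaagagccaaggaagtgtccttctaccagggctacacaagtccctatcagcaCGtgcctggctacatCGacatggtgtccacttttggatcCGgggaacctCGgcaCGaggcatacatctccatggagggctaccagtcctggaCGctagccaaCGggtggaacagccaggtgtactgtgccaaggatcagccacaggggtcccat
Uncx: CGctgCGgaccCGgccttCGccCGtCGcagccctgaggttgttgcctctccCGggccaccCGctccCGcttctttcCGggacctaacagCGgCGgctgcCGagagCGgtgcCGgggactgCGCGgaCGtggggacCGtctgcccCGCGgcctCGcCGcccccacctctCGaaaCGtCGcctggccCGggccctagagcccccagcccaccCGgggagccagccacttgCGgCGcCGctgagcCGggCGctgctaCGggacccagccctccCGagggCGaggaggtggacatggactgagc
Pax2: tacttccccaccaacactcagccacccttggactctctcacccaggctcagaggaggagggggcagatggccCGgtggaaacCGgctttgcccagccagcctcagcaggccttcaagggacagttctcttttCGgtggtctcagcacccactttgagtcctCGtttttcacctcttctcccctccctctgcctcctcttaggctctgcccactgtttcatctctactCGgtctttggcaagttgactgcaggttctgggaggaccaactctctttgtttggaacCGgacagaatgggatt
The following pair are the centres of the longest H3K27me3 regions without FS2-AEBP2, both in introns, at Pappa (chr4:64915457-64915756) and Kcnq1 (chr7:150373543-150373842).
Pappa: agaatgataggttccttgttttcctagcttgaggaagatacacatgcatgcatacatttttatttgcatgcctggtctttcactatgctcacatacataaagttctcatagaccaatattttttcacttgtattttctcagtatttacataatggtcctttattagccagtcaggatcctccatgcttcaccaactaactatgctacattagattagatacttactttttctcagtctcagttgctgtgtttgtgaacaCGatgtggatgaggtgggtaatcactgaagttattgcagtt
Kcnq1: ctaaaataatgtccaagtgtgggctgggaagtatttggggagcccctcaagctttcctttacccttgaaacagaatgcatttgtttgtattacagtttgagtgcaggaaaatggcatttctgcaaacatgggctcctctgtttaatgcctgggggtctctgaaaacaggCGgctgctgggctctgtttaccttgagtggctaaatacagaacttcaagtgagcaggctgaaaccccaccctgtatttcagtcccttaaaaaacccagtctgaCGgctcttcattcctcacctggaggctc
The last is the centre of the FS2-AEBP2 peak farthest from the most upstream start of any protein-coding gene, in an intron of Ptprd (chr4:76095890-76096189).
Ptprd: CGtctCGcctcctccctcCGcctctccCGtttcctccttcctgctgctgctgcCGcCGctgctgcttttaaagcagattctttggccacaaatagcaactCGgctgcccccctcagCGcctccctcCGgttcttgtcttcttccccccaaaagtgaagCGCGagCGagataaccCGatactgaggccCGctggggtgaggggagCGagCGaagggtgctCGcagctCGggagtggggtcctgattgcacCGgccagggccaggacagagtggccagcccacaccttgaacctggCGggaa
These windows held 18 CpGs at Hoxd13, 36 at Uncx and 20 at Ptprd, against 1 at Pappa and 2 at Kcnq1. The Pax2 window is the exception among the peaks, with 6 CpGs and an observed to expected ratio of 0.26, and the 23247-bp peak around it overlapped 5 CpG-island-like regions elsewhere.

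FS2-AEBP2 was a feature of the longer and CpG-richer H3K27me3 regions. It was found in 27.6% of all regions (1601 of 5801, 26.5 to 28.8), and the regions that held it had a median length of 8541 bp against 4201 bp for those that did not. The share depended on how the regions were drawn. With H3K27me3 replicate 2 alone it was 18.0% of 9275 regions, with replicate 1 alone 11.8% of 14112 regions, and with FS2-AEBP2 peaks of at least the median score it was 16.4%.

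The share of regions with FS2-AEBP2 was 3.26% up to 1 kb in length, 3.68% from 1 to 2 kb, 8.05% from 2 to 4 kb and 25.6% from 4 to 8 kb. It was 50.7% from 8 to 12 kb, 65.2% from 12 to 16 kb, 81.9% from 16 to 24 kb and 82.2% above 24 kb. The share was thus higher in each length class than in the one below it, with overlapping intervals for the shortest pair and for the longest pair.

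Length alone did not describe the pattern, since at every length the regions with a CpG-island-like region held FS2-AEBP2 more often. Among regions of 4 to 6 kb it was present in 252 of 965 with a CpG-island-like region (26.1%, 23.4 to 29) and in 16 of 409 without (3.91%, 2.42 to 6.26). Above 16 kb the counts were 296 of 321 (92.2%, 88.8 to 94.7) and 5 of 46 (10.9%, 4.73 to 23). Over all lengths the shares were 39.1% and 2.98%, a difference of 36.1 percentage points, which was 22.6 with FS2-AEBP2 peaks of at least the median score. The number of CpG-island-like regions ordered the shares further, with 30.8% for regions with 1, 68.6% with 2, 90.1% with 3 and 99.3% (134 of 135) with 4 or more, although the median length of these classes also went from 5304.5 bp to 24177 bp. Among regions with a single CpG-island-like region and a length of 4 to 8 kb, the share was 12.7% where it was under 1 kb long, 31.7% from 1 to 1.5 kb and 55.6% above 1.5 kb.

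**Figure D1:**
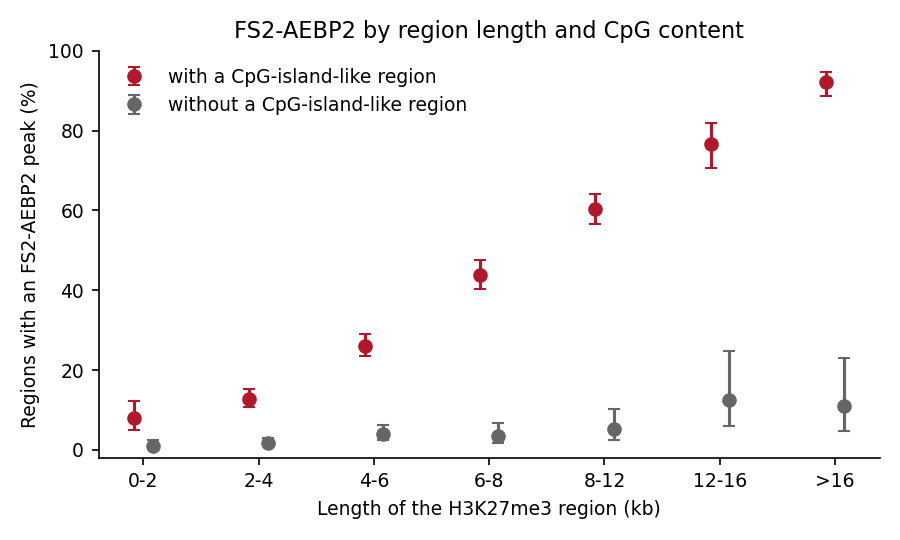
Share of H3K27me3 regions with an FS2-AEBP2 peak (%) by the length of the region (kb), for regions with (red) and without (grey) a CpG-island-like region; points are shares and bars are 95% Wilson intervals, which cover counting error only. The red points lie above the grey ones in every length class, from 7.94% against 0.882% up to 2 kb to 92.2% against 10.9% above 16 kb.

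Regions with a CpG-island-like region but no start site held FS2-AEBP2 more often than those with a start site alone. Start sites are the most upstream annotated start of each protein-coding gene. FS2-AEBP2 was present in 1156 of 2410 regions with both a start site and a CpG-island-like region (48.0%, 46.0 to 50.0) and in 390 of 1546 with a CpG-island-like region only (25.2%, 23.1 to 27.4). It was present in 21 of 279 regions with a start site only (7.53%, 4.98 to 11.2) and in 34 of 1566 with neither (2.17%, 1.56 to 3.02). These classes differ in length as well, with medians of 6814, 4051, 4302 and 3609.5 bp.

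The scores of the H3K27me3 peaks, which rank peaks within a list on a scale that is not stated, moved with FS2-AEBP2 within groups of regions by length. With the regions split into 4 equal groups by length and each of these into 3 by score, the share with FS2-AEBP2 in regions of 5121 to 7902 bp was 12.8%, 25.9% and 49.6% from the lowest to the highest scores of replicate 1, and 12%, 27.7% and 48.6% for replicate 2. In the longest group, which spans 7909 to 162445 bp and so mixes very different lengths, it was 32.7%, 63.1% and 88.0%, and 28.6%, 67.3% and 88.0%. By chromosome the share lay between 21.2% (X, 32 of 151 regions) and 38.5% (chromosome 19, 60 of 156).

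Within the regions that held it, FS2-AEBP2 took a minor share of the mark. The median region was 19.9% covered (18.6 to 20.9), with 10.1% and 34.2% as the lower and upper quartiles. A share of at most 10% was covered in 397 regions, 10 to 25% in 585, 25 to 50% in 428, 50 to 75% in 140 and over 75% in 51, and 6 regions were covered to 90% or more. In bases, FS2-AEBP2 lay on 29.2% of the sequence of these regions. A single peak was present in 1149 regions, 2 peaks in 281, 3 in 94, 4 in 48 and 5 or more in 29. The median share covered was 16.9% in regions of 4 to 8 kb, where the median covered length was 983 bp, and 42.7% above 24 kb, where it was 12411 bp.

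The most covered regions of at least 10 kb were short domains around single developmental genes and 1 whole gene cluster. Osr1, a zinc finger factor of the intermediate mesoderm, had 94.0% of its 15792-bp region covered by a single peak. Vax2, a homeobox factor of the ventral eye, had 91.9% of 20834 bp, and Nxph4, which encodes a neurexophilin, 89.5% of 12824 bp. The HoxA cluster had 88.1% of 118921 bp. In endogenous AEBP2 replicates 1 and 2 the same Osr1 region was covered to 58.2% and 87.0%, and HoxA to 56.2% and 67%, lower than FS2-AEBP2 at both. Nxph4 was covered to 76.8% in replicate 1, again lower than FS2-AEBP2, and to 96.9% in replicate 2, which was higher.

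Among the least covered regions of at least 10 kb, those described here carried 1 small peak each. A region 7895 bp from Zbtb42 had 131 bp of FS2-AEBP2 (0.785%), the region at Med12l, a Mediator subunit gene, 105 bp (0.800%), and regions far from genes, nearest to Gm12830 and Hif1an, had 165 and 173 bp (0.890% and 0.923%). Endogenous AEBP2 replicate 1 had no peak in the regions nearest to Gm12830 and Hif1an and covered 6.63% of that near Zbtb42 and 14.9% of that at Med12l, and replicate 2 covered between 6.85% (near Hif1an) and 29.2% (Med12l) of these 4 regions.

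**Figure D2:**
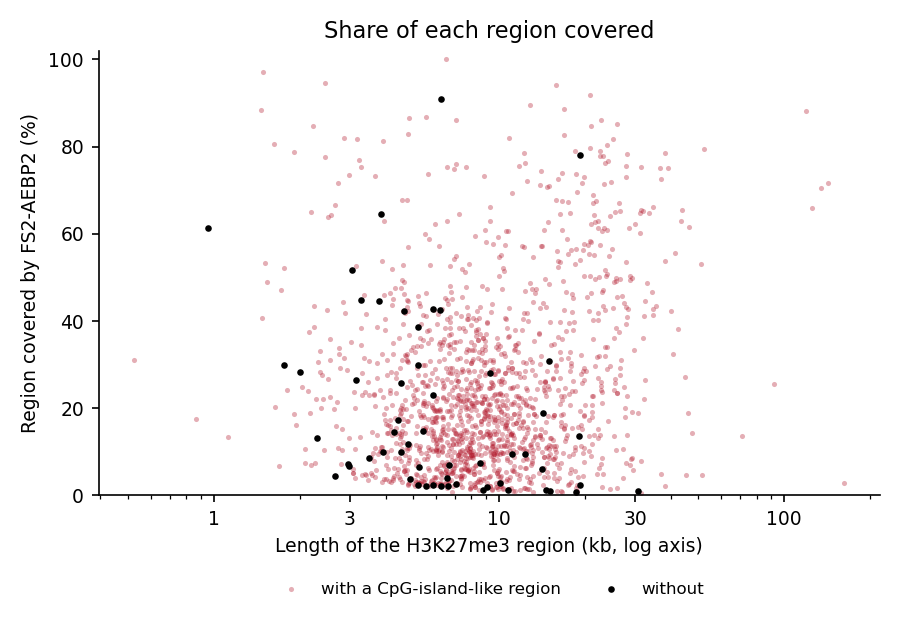
Share of each H3K27me3 region covered by FS2-AEBP2 (%) against the length of the region (kb, log axis), for the 1601 regions with a peak; each point is a region, red with and black without a CpG-island-like region. Of the 1601 points 191 lie above 50%, and 55 are black.

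The 10 longest regions with FS2-AEBP2, from 51015 to 162445 bp, showed how differently a domain could be filled. The HoxC, HoxB, HoxD and HoxA clusters, the body-axis homeobox genes, were covered to 71.7% by 20 peaks, to 70.5% by 11, to 65.9% by 11 and to 88.1% by 7. The longest single peak, of 75653 bp, ran over Hoxb2 to Hoxb8 and took 56.0% of the HoxB region. Nr2f2 (COUP-TFII) was covered to 79.4%, Hand2, a heart and limb factor, to 53.0% and Lmx1b, a factor of limb and kidney, to 25.5%. Nkx1-1 had 13.7% of 71365 bp under 1 peak, and Wnt3, a ligand needed for gastrulation, 4.66% of 51423 bp under 3.

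The longest H3K27me3 region of all was among the least filled. It spanned 162445 bp from Kcnq1 to Cdkn1c, an imprinted gene for an inhibitor of the cell cycle, and 4 FS2-AEBP2 peaks together covered 2.95% of it. The peaks were 167, 2279, 188 and 2158 bp long, the longer pair each overlapped a CpG-island-like region, and the 2158-bp peak ended 76 bp from the Cdkn1c start site. Endogenous AEBP2 covered 3.90% and 9.87% of it in replicates 1 and 2. Around it, the distal chromosome 7 cluster from Th to Phlda2, chosen after its values were seen, held 16 regions that sum to 364741 bp, of which FS2-AEBP2 lay in 4 and covered 2.06%. Those 4 were the regions of Ascl2 (6.34% covered), Trpm5 and Kcnq1 (1.64%), Cdkn1c and Phlda2 (10.8%), and each held a CpG-island-like region and a start site.

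The longest regions without FS2-AEBP2 mostly lay away from start sites and had few CpGs. The 10 longest ranged from 31470 to 51198 bp, 8 held no start site and 8 no CpG-island-like region, and their observed to expected CpG ratios ran from 0.131 to 0.326. They included 51198 bp within Pappa, which encodes a protease of IGF-binding proteins, 49120 bp within Kcnq1, a potassium channel gene, and 44767 bp that lay 155268 bp from Sox9. Others were within Prickle1 (39105 bp), Ephb1 (31470 bp) and Bcmo1 (31544 bp), over part of Slc9a9 (32666 bp), partly within Th (32185 bp), and 131789 bp from Trim29 (34987 bp). The exceptions in CpG content were Prickle1, with 2 CpG-island-like regions, and the region with the starts of Hpcal4 and Nt5c1a (37125 bp), with 4. Endogenous AEBP2 replicate 1 had no peak in any of the 10, and replicate 2 covered at most 10.4%, at Hpcal4. Of all 66 regions of 16 kb and longer without FS2-AEBP2, 41 had no CpG-island-like region and 45 no start site, against 5 and 42 of the 301 with it.

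FS2-AEBP2 lay inside the H3K27me3 regions and seldom at their borders. Of the 2380 peaks, 2320 lay wholly inside (97.5%, 96.8 to 98.0) and 60 crossed a border. Among the 1539 regions whose peaks all lay inside, the joined region went on beyond the outermost FS2-AEBP2 base. The median was 2189 bp on the shorter side and 4065 bp on the longer side. At least 1 kb of the region lay on both sides in 1237 (80.4%, 78.3 to 82.3). Parts of these margins were called in 1 H3K27me3 list only. Peaks of replicate 1 covered 70.6% and 71.4% of the outermost 5% at the ends, and those of replicate 2 51.2% and 51.3%. Averaged over regions scaled to the same length, FS2-AEBP2 covered 3.44% of the outermost 5% of the region at one end and 4.08% at the other, and 46.4% and 47.4% of the 5% on either side of the middle. In the middle, endogenous AEBP2 covered 44.2 to 44.9% in replicate 1 and 62.2 to 62.8% in replicate 2.

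**Figure D3:**
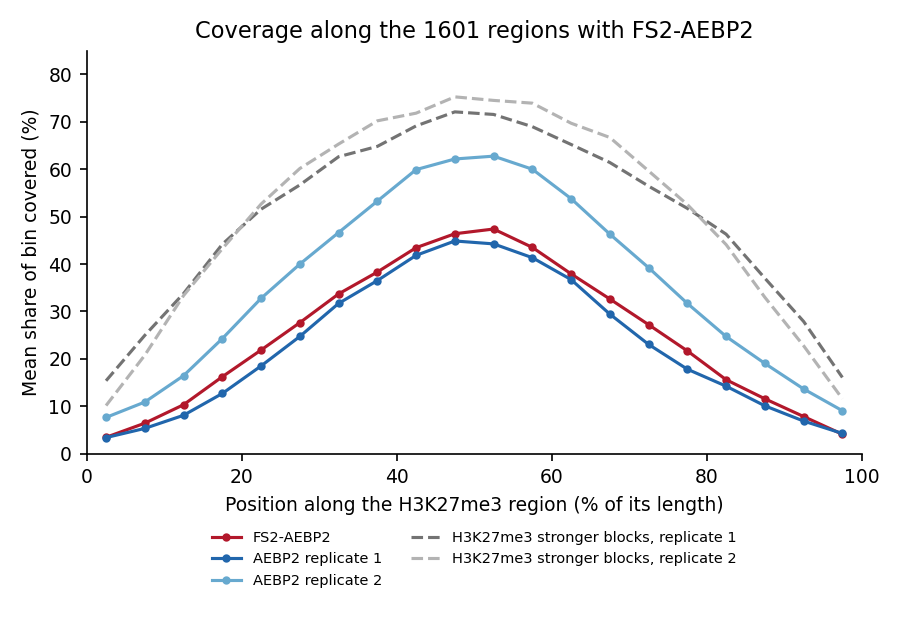
Mean share of each of 20 equal bins covered (%) against the position along the region (% of its length, in genome orientation) for the 1601 H3K27me3 regions with FS2-AEBP2; solid lines are FS2-AEBP2 and endogenous AEBP2 replicates 1 and 2, and dashed lines the stretches that the caller marked as stronger in each H3K27me3 list. All curves are lowest at the ends and highest near the middle, where FS2-AEBP2 reaches 47.4%.

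A peak that is long against its region is bound to be near the middle, so position was also counted for small peaks, those covering at most 25% of their region and lying wholly inside. The centre was in the central 50% of the region for 1316 of 1823 small peaks (72.2%, 70.1 to 74.2), where even placement of peaks of these lengths would give 55.6%. In the outermost 10% at either end the centres of 5.65% were found against 11.4% for even placement. The central share was 83.3% (even placement 57.0%) for peaks that were the only one of their region and 63.4% (54.5%) in regions with 2 or more. In regions of 20 kb and longer it was 53.7% (53.9%). Even placement takes each peak alone, without the room that other peaks of the region take, so this match does not show an even spread. With peaks of all sizes, FS2-AEBP2 covered 58.0% of the middle 10% of regions of 16 kb and longer. It covered 4.83% of the outermost 5% at their ends. Small peaks of endogenous AEBP2 had a central share of 77.7% (57.5%) in replicate 1 and 74.5% (58.0%) in replicate 2.

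Single peaks in regions of at least 10 kb gave examples of both extremes. At Irx6, an Iroquois homeobox gene, a 2635-bp peak had 5251 bp of the region on one side and 5238 bp on the other. At Dbx1, a homeobox gene of spinal interneurons, an 8196-bp peak had 4992 and 4939 bp, and at Wnt7a, a ligand of limb and brain development, a 1957-bp peak had 6798 and 6739 bp. At the other extreme a 146-bp peak 870 bp from the Gnaz start, in an intron of Rtdr1, had 9584 and 576 bp, and a 421-bp peak at Adcy1, an adenylyl cyclase gene, 9067 and 606 bp. The central peaks were the longer ones in this small set, and all 3 overlapped a CpG-island-like region, as did the peak at Adcy1.

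The stretches that the caller marked as stronger within an H3K27me3 peak held most of the FS2-AEBP2 bases. They made up 54.6% of the bases of these regions in replicate 1 and 54.0% in replicate 2, and held 83.6% and 88.1% of the FS2-AEBP2 bases. FS2-AEBP2 covered 44.7% of the stronger bases and 10.6% of the others by replicate 1, and 47.6% and 7.57% by replicate 2. The share covered was higher in the stronger stretches in 1542 and 1480 of the 1601 regions.

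Of the 5161 CpG-island-like regions in all H3K27me3 regions, FS2-AEBP2 overlapped 2342 by at least 1 bp (45.4%, 44.0 to 46.7). Of the 2640 in regions that held a peak, 2338 were overlapped (88.6%, 87.3 to 89.7), and 1874 of the 2380 peaks overlapped one (78.7%, 77.1 to 80.3). Inside FS2-AEBP2 the GC content was 55.2%, the observed to expected CpG ratio 0.564 and the share of bases in a CpG-island-like region 44.7%. In the rest of the same regions these were 48.3%, 0.296 and 8.58%, close to the 49.3%, 0.314 and 11.3% of the regions without FS2-AEBP2. Region by region, the ratio was higher inside FS2-AEBP2 in 1245 of the 1313 regions with at least 500 bp both inside and outside (94.8%).

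The CpG-island-like regions themselves were central in H3K27me3 regions, so the central position and the CpG content moved together. Of those small against their region, 75% in regions with FS2-AEBP2 (1600 of 2133, even placement 55.7%) and 84.5% in regions without it (1150 of 1361, even placement 59.5%) had their centre in the central 50%. The 846 regions with a single peak and a single CpG-island-like region allowed the distances to be set side by side. There the centre of the peak was a median of 339 bp from the centre of the CpG-island-like region (320.5 to 368) and 759 bp from the middle of the H3K27me3 region (692 to 836.5), and it was nearer the former in 602 (71.2%, 68.0 to 74.1). Which of these positions FS2-AEBP2 follows was not tested.

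More than 1 in 2 FS2-AEBP2 peaks in the regions lay by a gene start. A start site was within 1 kb of the peak for 1309 of 2380 (55%, 53.0 to 57.0), from 1 to 5 kb for 406 (17.1%), from 5 to 20 kb for 366 (15.4%) and beyond 20 kb for 299 (12.6%), of which 74 were over 100 kb away. A start site was inside the peak for 628, and the median distance from the edge of a peak was 651 bp. Peaks within 1 kb of a start site were longer than those over 5 kb away (medians 1494 and 895 bp), had a higher score (11 and 8) and overlapped a CpG-island-like region more often (94.9% of 1309, 93.6 to 95.9, and 63.0% of 665, 59.3 to 66.6). In gene annotation, 24.4% of the FS2-AEBP2 bases were exonic, 36.8% intronic and 38.8% outside genes, against 13.1%, 39.4% and 47.5% of the whole regions that held them.

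Around start sites the tagged protein lay to the gene side, as did endogenous AEBP2. Of the 2899 start sites in the regions, 668 were inside an FS2-AEBP2 peak (23%) and 1205 had a peak within 1 kb. Among these 1205 the start site was inside the peak for 668 (55.4%, 52.6 to 58.2), while for 413 (34.3%) the peak lay only downstream, for 53 (4.40%) only upstream and for 71 (5.89%) on both sides. The corresponding shares of start sites inside the peak were 74.6% (962 of 1290) and 82.9% (1705 of 2056) for endogenous AEBP2 replicates 1 and 2, each at the start sites it has a peak within 1 kb of. At the 1205 sites FS2-AEBP2 covered 53.3% in the 100 bp before the start and 74.7% between 500 and 600 bp after it, its highest point. On the same sites endogenous AEBP2 replicate 1 was at 63.1% before the start and highest, at 74.0%, from 300 to 400 bp after it, and replicate 2 was at 86.6% and highest, at 92.9%, from 200 to 300 bp. CpG-island-like sequence was likewise more frequent on the gene side, at 41.4% of bases from 0 to 2 kb downstream and 21.2% upstream of all start sites in the regions, where FS2-AEBP2 covered 25.4% and 14.5%. Endogenous AEBP2 covered 30.2% downstream and 16.2% upstream in replicate 1, and 46.7% and 27.6% in replicate 2. The FS2-AEBP2 and endogenous AEBP2 samples differ in protein, antibody, protocol and possibly depth, which cannot be told apart here.

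**Figure D4:**
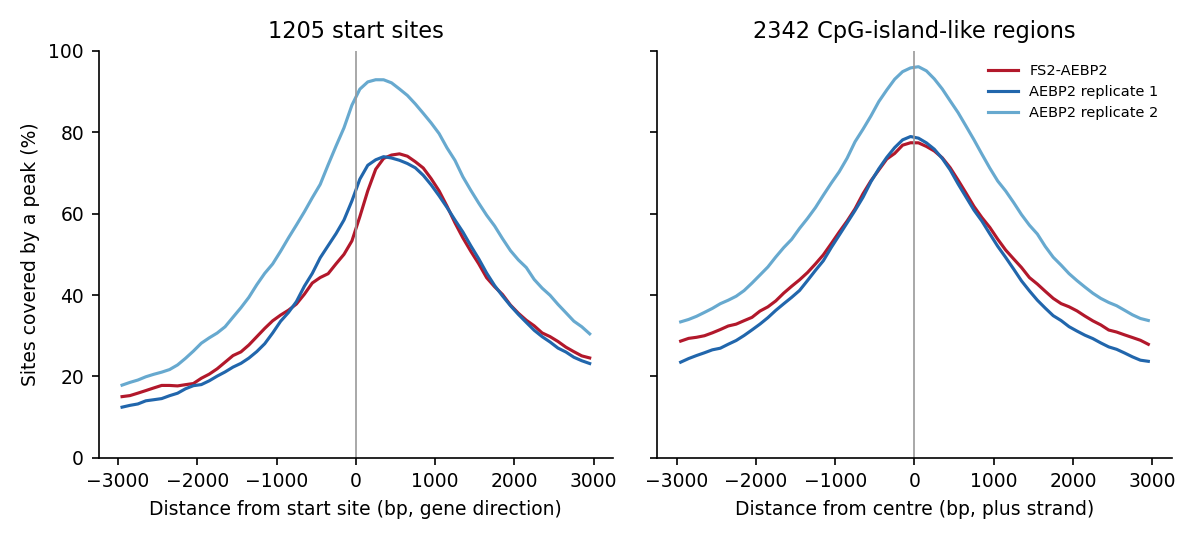
Share of sites covered by a peak (%) against the distance in bp, in 100-bp bins, from 1205 start sites with an FS2-AEBP2 peak within 1 kb (left, positive in the direction of the gene) and from the centres of 2342 CpG-island-like regions overlapped by FS2-AEBP2 (right), for FS2-AEBP2 and endogenous AEBP2 replicates 1 and 2. FS2-AEBP2 is highest at 74.7% between 500 and 600 bp past the start site, and all 3 lists are highest within 100 bp of the centre of the CpG-island-like regions, at 77.4%, 78.9% and 96.1%. Both sets of sites were chosen for FS2-AEBP2 at or near them, which by itself raises its curves there.

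The 10 peaks with the highest scores all held a start site, and 8 of them were at homeobox, paired-box, forkhead or bHLH factor genes, the others being at Pcdh10 and Egr3. They ran from 5860 to 41064 bp and took between 6.79% and 76.3% of their region, and the centres of 9 were in its central 50%. A peak that takes over 50% of its region has to be centred there. This applies to the peaks at Uncx, Pax2, Pcdh10, Six3 and Foxb2, which took 63.0% to 76.3%, so the count of 9 is no measure of position. The scores were 130 at Hoxd13, a posterior limb gene, 126 at Uncx, a factor of the somites, and 123 at Pax2, a factor of kidney and midbrain, and at Pcdh10, a protocadherin gene. They were 122 at Six3, which patterns the forebrain and eye, 113 at Foxb2, 109 at Pax7, a factor of muscle stem cells, 106 at Olig2, a factor of motor neurons and oligodendrocytes, 104 at Hoxc11 and 103 at Egr3, a zinc finger factor. The Hoxd13 peak was the exception in position, centred at 18.8% of the HoxD region. Over all peaks in regions, those with a score of 50 or more were within 1 kb of a start site in 89.5% and on a CpG-island-like region in 100% of 152, against 45.2% and 66.1% of the 378 with a score of 1 to 4, and were longer (medians 8565 and 562 bp). A long peak has more chances to meet a site, and no adjustment for length was made.

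The peaks farthest from the start sites used here, among them 1171655 bp in Ptprd, 493684 bp near Med13l and 480151 bp near Chrm3, showed what distance to the most upstream start leaves out. The 352-bp peak in Ptprd, a receptor phosphatase gene, overlapped the start of a shorter annotated Ptprd transcript, and a shorter peak in the same 5687-bp region lay 1126 bp from it. The 2524-bp peak near Chrm3, a muscarinic receptor gene, overlapped the start of the lincRNA Gm16950. The 170-bp peak near Med13l had no transcript start within 242673 bp and no CpG-island-like region, whereas the Ptprd (352 bp) and Chrm3 peaks overlapped 1 each. With the starts of all transcripts of protein-coding genes, which leave out lincRNAs such as Gm16950, 63.5% of FS2-AEBP2 peaks in the regions were within 1 kb of a start.

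Of the 3486 protein-coding promoters with an H3K27me3 region within 1 kb of the start site, FS2-AEBP2 was within 1 kb at 1287 (36.9%, 35.3 to 38.5), or 23.4% with peaks of at least the median score. It was at 1237 of 2948 promoters with a CpG-island-like region (42.0%, 40.2 to 43.8) and 50 of 538 without (9.29%, 7.12 to 12). Of the 18881 promoters with no H3K27me3 region, 173 carried it (0.916%). Of the 2199 H3K27me3 promoters without it, 150 had FS2-AEBP2 elsewhere in the same region, 345 (15.7%) carried a peak of endogenous AEBP2 replicate 1 and 1072 (48.7%) one of replicate 2, the longer of those lists.

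Families of developmental transcription factors carried FS2-AEBP2 at nearly all of their H3K27me3 promoters. Families were taken by gene symbol, and over 15 factor families 163 of 183 promoters had it (89.1%, 83.7 to 92.8), beside 36.9% of all H3K27me3 promoters. The 183 promoters lay in 146 regions, since clustered genes share a region, and 132 of these regions held FS2-AEBP2 (90.4%). All H3K27me3 promoters carried it among the Dlx and Msx (9), Irx (6) and Zic (3) genes, and it was at 38 of 39 Hox, 11 of 12 LIM homeobox, 11 of 12 T-box, 8 of 9 Pax, 20 of 23 Fox and 10 of 12 Sox promoters. It was at 6 of 7 Pou3f and Pou4f, 5 of 6 sine oculis and Eya, 14 of 17 neural bHLH, 4 of 5 Gata, 11 of 14 Nkx and 7 of 9 ParaHox, Evx and Mnx promoters. Their regions had a median length of 22412 bp, against 5796 bp for the 2893 promoters in no listed family, of which 957 (33.1%) carried FS2-AEBP2. In regions of 8 to 16 kb the counts were 33 of 35 factor promoters (94.3%, 81.4 to 98.4) and 338 of 612 unlisted ones (55.2%, 51.3 to 59.1), and in regions of 4 to 8 kb 5 of 18 (27.8%, 12.5 to 50.9) and 371 of 1255 (29.6%, 27.1 to 32.1).

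The 20 factor promoters without FS2-AEBP2 fell into a group of 6 and a group of 14. Hoxd4, Isl2, Nkx2-6, Tbr1, Gata4 and Nhlh2 had FS2-AEBP2 elsewhere in their region, which was covered to 65.9%, 47.4%, 17.8%, 31.4%, 6.98% and 18.2%. Hoxd4 lies in the HoxD cluster, Isl2 encodes a LIM factor of motor neurons, and Tbr1 a T-box factor of the cortex. The other 14 were in regions of 2556 to 7395 bp with no FS2-AEBP2 at all, among them Foxi2, Foxj1, Foxn4, Sox5, Sox30, Pax4, Nkx6-3, Six5, Atoh7, Neurod1, Pou3f4, Cdx1 and Cdx4. Of the 14, 11 had a CpG-island-like region at the promoter, 11 a peak of endogenous AEBP2 replicate 2 and 2 (Sox5 and Neurod1) one of replicate 1. Foxj1, the regulator of motile cilia, had the shortest region.

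Over all region lengths, signalling families stood between the factors and the rest, with 58 of 92 promoters (63.0%, 52.8 to 72.2). This order did not hold at every length. In regions of 4000 to 8000 bp the signalling share was 65.6% (21 of 32, 48.3 to 79.6). Factor promoters had 27.8% there (5 of 18, 12.5 to 50.9) and unlisted ones 29.6%. In regions of 8000 to 16000 bp the signalling share, 71.4% (20 of 28, 52.9 to 84.7), lay between 94.3% and 55.2%. FS2-AEBP2 was at 16 of 18 Wnt ligand promoters, all but Wnt4 and Wnt8a, and at 10 of 13 promoters of Frizzled receptors and Wnt antagonists, where Dkk3, Fzd3 and Fzd9 lacked it. The Wnt4 region was long for a region without FS2-AEBP2, at 11482 bp, and both endogenous AEBP2 replicates had a peak at its promoter. It was at 11 of 16 promoters of BMP and GDF ligands and antagonists, with none at Bmp4, Bmp8a, Bmp8b and Gdf11 among others, and at 7 of 13 Fgf promoters. Axon guidance genes (semaphorins, netrins and Slit ligands with the Unc5 netrin receptors) had 9 of 19 (47.4%, 27.3 to 68.3). Ephrins with their Eph receptors had 5 of 13 (38.5%, 17.7 to 64.5). The intervals of both lists, and that of the Fgf genes (53.8%, 29.1 to 76.8), hold the 36.9% of all H3K27me3 promoters. At Efnb2, an ephrin gene, FS2-AEBP2 covered 16.2% of a 1939-bp region without coming within 1 kb of the start site.

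Families of channels, transporters and adhesion molecules were near the share of all H3K27me3 promoters or below it. FS2-AEBP2 was at 23 of 60 potassium channel (38.3%, 27.1 to 51.0), 22 of 48 G protein-coupled receptor (45.8%, 32.6 to 59.7), 10 of 23 collagen (43.5%, 25.6 to 63.2) and 10 of 29 ligand-gated channel promoters (34.5%, 19.9 to 52.7). It was at 13 of 43 cadherin (30.2%, 18.6 to 45.1), 21 of 78 solute carrier (26.9%, 18.3 to 37.7) and 7 of 32 Zfp promoters (21.9%, 11 to 38.8). Most of the cadherin promoters without it belonged to the Pcdhb gene cluster, where some genes share a region. The cadherin share thus rests largely on that cluster, and its interval takes those promoters as independent. Of 11 PRC2 subunit genes only Phf19 had an H3K27me3 region at its promoter, and it had no FS2-AEBP2. Over all 22367 protein-coding genes, 18881 promoters had no H3K27me3 region. Of 16 pluripotency genes, listed as a check of the cell type, 14 had none, too near the share of all genes to serve as that check. The exceptions were Prdm14 and Tbx3, which both carried FS2-AEBP2, and of the 14 Klf2 and Klf4 carried it without an H3K27me3 region. Of the 4, endogenous AEBP2 had a peak only at Tbx3, in both replicates.

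**Figure D5:**
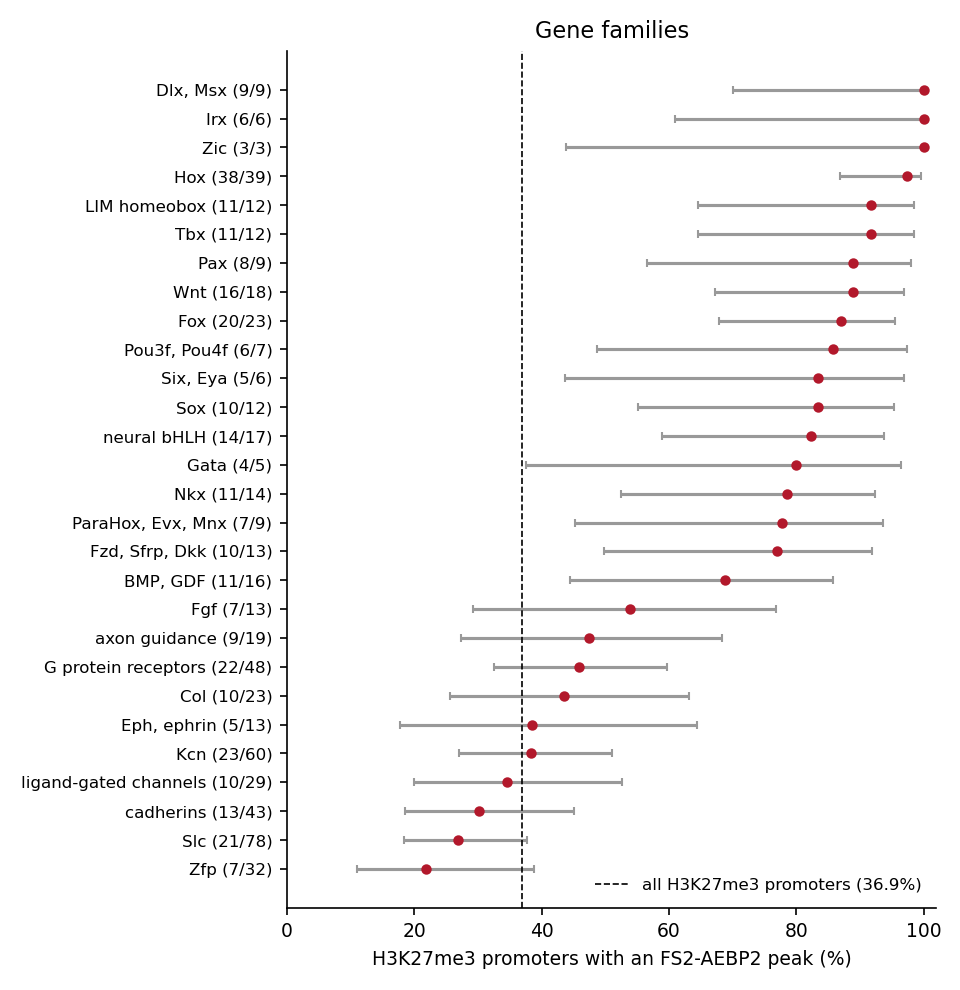
Share of H3K27me3 promoters with an FS2-AEBP2 peak within 1 kb of the start site (%) for the gene families with at least 3 such promoters; points are shares, bars are 95% Wilson intervals for counting error only, numbers in parentheses are promoters with FS2-AEBP2 of all H3K27me3 promoters, and the dashed line is the share over all 3486 (36.9%). Transcription factor families lie to the right of the line, from 77.8% upward. Wnt ligands, Frizzled receptors with Wnt antagonists, and BMP and GDF genes also lie to its right with intervals clear of it. Ligand-gated channels, cadherins, solute carriers and Zfp genes lie to its left with intervals that reach it.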

How the data were processed

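Peak lists of 5 wild-type ChIP-seq samples of 13 in the series were used, 1 per sample. The authors' processing notes name Bowtie, SAMtools, Picard, MACS2 2.0.10.2 and mm9, and the caller thresholds, the treatment of duplicate reads and the control library are not given in the sources used here. For each peak the authors deposited its start, end, stronger blocks and a whole-number score of unstated scale, by which peaks were ordered within their own list and no further. The lists differ in number of peaks (2884 for FS2-AEBP2, 14112 and 9288 for H3K27me3 replicates 1 and 2, 2879 and 6779 for AEBP2 replicates 1 and 2), and 13 peaks of H3K27me3 replicate 2 were off the chromosomes used. Broad calling can bridge gaps between sites and so lengthen peaks.

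Overlap was set at 1 bp. GENCODE M1 protein-coding genes (22367, each with its most upstream start) and the NCBIM37 sequence, which is mm9, gave start sites, promoters (1 kb on either side) and CpG content in 500-bp windows at steps of 10 bp. Shares have 95% Wilson intervals, and even placement is the share expected from the lengths of peak and region alone. With 1 FS2-AEBP2 list there was no test between groups. Named regions and peaks were the 10 highest-scoring peaks, the 10 longest regions with and without FS2-AEBP2, the 5 most and 5 least covered regions of at least 10 kb, the 5 peaks farthest from a start site, the 3 single peaks nearest the middle and the 3 nearest a border, and up to 4 family members that differed from most of their family. The members and gene lists were chosen with earlier results of these data known. The position and overlap counts were tested on simulated peaks. Python 3.11.15, numpy 2.4.6, pandas 2.3.3 and scipy 1.17.1 were used. A few items chosen by these rules are not reported here.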

Additional observations from a re-analysis of the deposited data

How the results depend on the processing

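Of 40 values recomputed, 17 stayed within the 95% interval of the reported value and 23 moved beyond it. Only the central share, set beside even placement, and the difference by CpG-island-like region have a direction that could reverse. Neither reversed under the alternatives tried. The other results are shares or a median with no such direction. With FS2-AEBP2 peaks of at least the median score, the share of regions with a peak was 16.4%, the median share covered 25.9%, the central share of small peaks 74.2%, the share of peaks within 1 kb of a start site 61.8%, the share of promoters 23.4% and the difference between regions with and without a CpG-island-like region 22.6 points. With H3K27me3 peaks of at least the median score, the regions were 40.3%, the promoters 45.8% and the difference 41.7 points. Joining H3K27me3 peaks within 1 kb gave a median share covered of 18.4%. Cutting regions to the stretch shared by both lists gave 25.7% covered and a central share of 67.2%. Counting peaks of up to 50% of a region as small gave a central share of 75.4%, and the starts of all transcripts of protein-coding genes gave 63.5% within 1 kb.

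With either H3K27me3 list left out, the share of regions ran from 11.8% to 18.0%, the share covered from 22.9% to 24.6%, the central share from 67.3% to 69.5%, the share near a start site from 55% to 55.2%, the share of promoters from 32.6% to 33.9% and the difference from 32.0 to 37.6 points. These single lists hold more regions (14112 and 9275), and why each value moved was not tested further. No paired analysis was possible because FS2-AEBP2 has 1 list and the results come from no test between groups. Unknown depth limits every statement that a peak was missing.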
